A study of Bos taurus with 8 samples.

Results

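The AP-1 factors described here are FOS, FOSB, FOSL1, FOSL2, JUN, JUNB, JUND, ATF3 and BATF, 9 of 17036 named genes and 18 of 43653 probes on the array, found by their symbols in the deposited table and read probe by probe. The members were chosen by their processed signals in treated and untreated blood, whose difference was already known, so it is given as a description and without p-values. Whole blood of Holstein Friesian cows (5 animals, all female, given a probiotic for 60 days before the draw) was kept for 30 min at 37 °C under 5% CO2, either with cowpea leaf phenolic extract at 10 µg/ml (the CPE group, 4 arrays) or untreated (the CONTROL group, 4 arrays). Both groups therefore share the probiotic, the incubation and the time outside the animal, and blood taken without incubation was not analysed here. The series text speaks of RNA pooled within each group, so replicate arrays may be technical ones, and each SD and SE measures how arrays varied and says nothing of variation among animals. The 4 arrays of each group occupied their own slide, the slides were scanned at separate times and read with different versions of the spot grid, and slide and treatment cannot be told apart.

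AP-1 is a family of transcription factors that bind DNA as pairs held together by a leucine zipper, with a basic stretch beside it that touches the DNA. FOS proteins pair with JUN proteins and cannot pair with themselves, whereas JUN proteins can, and ATF3 and BATF are smaller members that often act as repressors or pair with JUN proteins in lymphocytes. FOS, FOSB, JUN, JUNB and ATF3 are immediate-early genes: stimulation, stress or handling of leukocytes induces their mRNA within minutes, through kinases that act on factors already bound to the promoter, and AU-rich stretches in the mRNA then cause its rapid decay. JUND is present in resting cells.

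The arrays carry 60-base probes, and related genes could in principle share a probe, since family members are alike in the basic stretch and the zipper. For that reason a probe each of 6 members is shown. Capitals in the FOS probe mark bases identical to the FOSL2 probe in their best overlap without gaps, and capitals in the FOSL2 and FOSL1 probes mark bases identical to the FOS probe.
FOS A_73_P101011: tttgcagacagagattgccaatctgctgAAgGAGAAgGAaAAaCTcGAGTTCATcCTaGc
FOSL2 A_73_P082791: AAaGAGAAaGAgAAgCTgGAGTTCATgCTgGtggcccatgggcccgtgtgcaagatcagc
FOSL1 A_73_P061596: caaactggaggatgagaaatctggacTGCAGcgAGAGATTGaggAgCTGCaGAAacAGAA
FOSB A_73_P274581: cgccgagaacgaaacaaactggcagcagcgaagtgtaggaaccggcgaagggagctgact
JUN A_73_P101006: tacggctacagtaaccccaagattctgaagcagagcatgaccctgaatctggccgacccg
BATF A_73_P080591: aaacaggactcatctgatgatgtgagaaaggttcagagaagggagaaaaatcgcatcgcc
The FOS and FOSL2 probes shared 24 of 32 overlapping bases and the FOS and FOSL1 probes 25 of 36. The longest run that either pair had in common was 8 bases, so no probe of this family was a near copy of another. None of these 6 probes lay in bright surroundings on more than 1 array, and the main readings rest on other probes.

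The probes that carried the clearest readings were A_73_101038 for FOS and A_73_P356791 for FOSB. Both hold the pentamer ATTTA, the DNA form of the core of an AU-rich element, in capitals in these 30-base windows.
FOS A_73_101038: acttgaatgaaaaATTTAagcattgtttgc
FOSB A_73_P356791: ttcccggagaagATTTAaaggctgaggctt
ATTTA, searched on the printed strand, occurred in 4 of the 18 AP-1 probes (also in A_73_119265 for FOSL1 and A_73_120294 for JUNB) and in 7.45% of all probes. AATAAA, the signal for adding the poly(A) tail, occurred in 2 of the 18, A_73_101823 for FOSB and A_73_P317791 for JUN, and in 9.35% of all probes. The median share of A and T bases was 55% both in the 18 probes and over the array. A match is a description of these letters only.

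Where a spot lay decided whether it could be read. Large areas of every array were dim, and a spot was called lit when the 90th percentile of raw log2 brightness over its 61 nearest spots lay no more than 1.5 log2 units below the array's own 90th percentile of such local values. The lit share was 43.2% to 50.3% of spots on the CPE arrays and 31.9% to 40.8% on the CONTROL arrays, and 13097 spots (29.9%) were lit on all 8. Of the 18 AP-1 probes, 2 were lit on all 8 arrays, 6 on 1 to 7 arrays and 10 on none. The scanner software called 4 probes well above background on every one of the 8 arrays (1 of FOS, 2 of FOSB and 1 of JUND) and 5 on no array (1 of FOSB, both of FOSL1 and 2 of FOSL2). No AP-1 spot was marked as an outlier, and no spot on the arrays was saturated. All 30 blood cell markers looked up, among them PTPRC, CD3E, CD79A and HBB had a probe well above background on at least 1 array, and 19 of them on all 8, so the defining markers of whole blood were present.

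**Figure D1:**
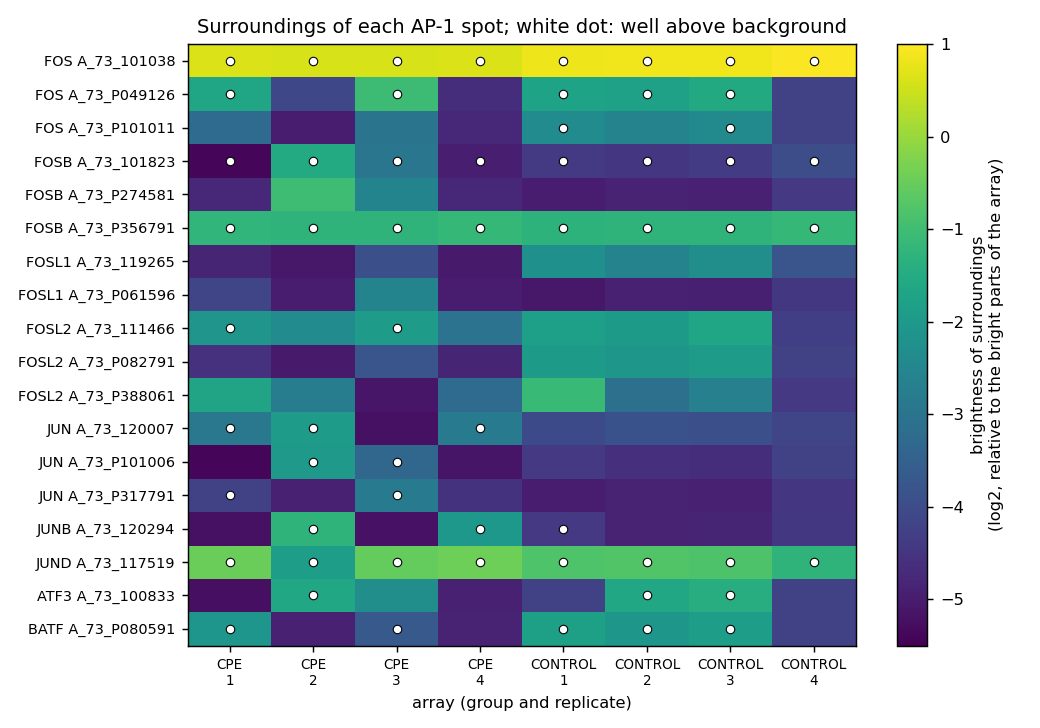
Brightness of the surroundings of each AP-1 spot (rows) on each array (columns), as the local 90th percentile of raw log2 signal relative to the bright parts of that array; a white dot marks a spot well above background. Only the FOS probe A_73_101038 and the FOSB probe A_73_P356791 were lit throughout, and most JUN family spots were in dim surroundings on all 4 CONTROL arrays.

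The mean signal of FOS was lower in CPE at all 3 of its probes, 1 of them in bright surroundings throughout. That probe, A_73_101038 (NM_182786), gave processed signals of 566, 496, 346 and 535 intensity units on CPE arrays 1 to 4 and of 3647, 3450, 3485 and 2871 on CONTROL arrays 1 to 4. Every CONTROL array lay far above every CPE array, and the spread within each group was small beside the gap. The spot was well above background and lit on all 8 arrays, with surroundings brighter than the array's own 90th percentile of local values. The margin was 0.60 to 0.67 log2 units on the CPE arrays and 0.83 to 0.95 on the CONTROL arrays. On the log2 scale, relative to the 75th percentile of the lit spots, the level was −0.35 ± 0.11 in CPE and 2.28 ± 0.02 in CONTROL (SD over 4 arrays a group), 6.21-fold lower in CPE (log2 −2.63, SE 0.08). Of 8099 probes tested in the lit area, 99 fell by more than 2 log2 units, and this probe had the 50th largest fall. The median log2 difference of all those probes was 0.025.

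Scaled to the 75th percentile of the whole array, the same FOS probe differed by −3.76 (SE 0.49), on a scale where the median difference of all 14925 tested probes was −0.82. Its 60 nearest spots had a median difference of −1.43 on that scale, with a 10th to 90th percentile range of −1.94 to −0.85, and none of the 60 differed by as much as FOS. Relative to those neighbours the FOS difference was −2.33. In the authors' deposited table of group averages, the probe stood at −2.03 in CPE and 1.72 in CONTROL, a difference of −3.76, which is the whole-array reading.

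Both other FOS probes also read low in CPE, on fewer readable arrays. A_73_P049126 gave 69.5, 7.10, 107 and 6.95 intensity units in CPE and 582, 476, 596 and 9.15 in CONTROL. The lowest 3 of those 8 values, CPE arrays 2 and 4 and CONTROL array 4, were at the floor that the software sets, and the surroundings there were at −4.65 to −4.08. On the 5 remaining arrays all 5 readings were well above background. The surroundings were −1.79 to −1.55 on CPE array 1 and CONTROL arrays 1 to 3. They were brighter, at −1.03, on CPE array 3, the only array on which the spot was lit. Over those 5 arrays, scaled to the lit area, the probe was 4.74-fold lower in CPE (log2 −2.24, n = 2 in CPE and 3 in CONTROL, no test). A_73_P101011, printed above, gave 6.74 to 22.6 in CPE and 9.15 to 55.0 in CONTROL. It was well above background on 2 CONTROL arrays and on no CPE array. Only a bound on the whole-array scale can be given, at least 2.72-fold lower in CPE, with no allowance for the surroundings. Its surroundings were at −5.01 to −3.01 on the CPE arrays and at −2.60 to −2.38 on CONTROL arrays 1 to 3, its 60 neighbours had a median difference of −1.29, and relative to them this probe differed by −1.06. Such a bound takes, for each array of the group without any reading, the higher of the spot's own value and the lowest value still well above background there. Arrays of the other group keep their own values, with or without a reading.

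FOSB, a close relative of FOS induced by the same stimuli, read the other way. Its lit probe A_73_P356791 (NM_001102248) gave 1476, 1480, 800 and 1364 intensity units in CPE and 1146, 965, 898 and 608 in CONTROL. These processed signals overlapped, CPE array 3 lying among the CONTROL arrays, but CPE array 3 was also the array with the lowest 75th percentile of lit spots (396, against 579 to 755 on the other arrays). After scaling, the levels were 0.99, 1.12, 1.01 and 0.99 in CPE and 0.60, 0.42, 0.34 and 0.071 in CONTROL, without overlap. The FOSB probe was 1.59-fold higher in CPE in the lit area (log2 0.67, SE 0.12). Its surroundings were 1.17 to 1.29 log2 units below the bright parts on all 8 arrays, so it lay just inside the limit of 1.5. On the whole-array scale the difference turned to −0.45 (SE 0.48) with overlapping groups, 0.89 above the median of its 60 neighbours (−1.34).

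A second FOSB probe, A_73_101823, was well above background on all 8 arrays although it was lit on none. It gave 739, 7682, 10242 and 840 intensity units in CPE and 767, 393, 503 and 295 in CONTROL. CPE arrays 2 and 3 stood apart, and CPE arrays 1 and 4 were close to CONTROL array 1. The surroundings were −1.53 on CPE array 2, just outside the limit, and −2.94 on CPE array 3, against −5.39 to −3.97 on the other 6 arrays. The whole-array difference was 1.57 (SE 0.71) and did not pass the threshold. Relative to the median of its 60 neighbours it was 2.71, and 6 of the 60 had a larger rise. The brightness of the surroundings moved with this reading, and its part in the result was not tested. The third FOSB probe, A_73_P274581, was well above background on no array.

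**Figure D2:**
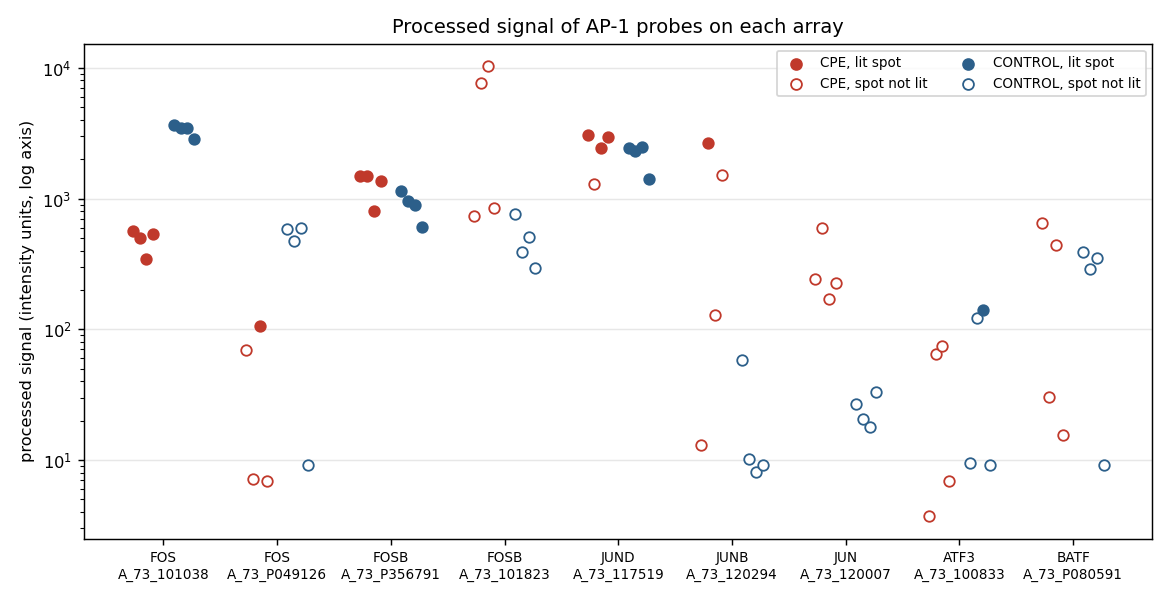
Processed signal (intensity units, log axis) of 9 AP-1 probes on each array, with CPE in red and CONTROL in blue; filled points are lit spots and open points are spots that were not lit. FOS A_73_101038 separates the groups with 346 to 566 against 2871 to 3647, whereas JUNB, JUN, ATF3 and BATF are read almost wholly from spots that were not lit.

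JUND, the JUN family member present in resting cells, was bright in both groups. Its probe A_73_117519 (NM_001103253) gave 3051, 1282, 2449 and 2949 intensity units in CPE and 2415, 2322, 2460 and 1400 in CONTROL, and the groups overlapped. It was well above background on all 8 arrays and lit on 7, the exception being CPE array 2, the lowest of the 8 readings, where the surroundings were at −1.89. Among spots lit on the 7 other arrays, the level of JUND was 2.28 ± 0.32 in CPE (SD, n = 3) and 1.63 ± 0.22 in CONTROL (SD, n = 4). It was thus 1.56-fold higher in CPE (log2 0.65, SE 0.18) and without overlap. Its surroundings on those arrays were also brighter in CPE, at −0.53 to −0.43 against −1.28 to −0.76 in CONTROL. Their part in the result was not tested. With the limit set to 2 log2 units, all 8 arrays entered, the groups overlapped and the difference was 0.27 (SE 0.31), which did not pass the threshold. On the whole-array scale it was −0.81 (SE 0.49), close to the median of all probes. The direction of JUND thus differed between the lit-area and the whole-array scale. Adding CPE array 2 and widening the limit, done together, ended the lit-area call.

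JUN, the main partner of FOS, had 3 probes, all of them lit on no array. A_73_120007 (NM_001077827) gave 240, 595, 171 and 226 intensity units in CPE and 26.7, 20.6, 17.7 and 33.0 in CONTROL. All 4 CPE arrays were above all 4 CONTROL arrays in processed signal, whereas on the whole-array scale CPE array 3 (−0.71) and CONTROL array 4 (−0.69) met. The spot was well above background on 3 CPE arrays and on no CONTROL array. The difference therefore has only a bound on the whole-array scale, at least 4.69-fold higher in CPE, with no allowance for the surroundings. Surroundings on the 3 CPE arrays with a reading were −2.90 to −1.90, against −4.13 to −3.86 on the CONTROL arrays, and 10 of the 60 nearest spots had a larger rise than JUN. A_73_P317791 gave 94.6, 7.37, 505 and 32.5 in CPE, and A_73_P101006 gave 3.72, 152, 124 and 6.95. The first was well above background on CPE arrays 1 and 3 and the second on CPE arrays 2 and 3, and both were at the floor on all 4 CONTROL arrays.

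JUNB, an immediate-early member that often opposes JUN, had a single probe, A_73_120294 (NM_001075656), with 13.0, 2641, 129 and 1510 intensity units in CPE and 58.4 on CONTROL array 1, with the other 3 CONTROL arrays at the floor. The groups overlapped, since CPE array 1 was below CONTROL array 1. The high readings, on CPE arrays 2 and 4, came from the arrays with the brightest surroundings (−1.28 and −2.02), and the surroundings were −5.21 to −4.43 on the other 6. Relative to its 60 neighbours JUNB differed by 3.40, and 4 of the 60 had a larger rise. The brightness of the surroundings moved with this reading, and its part in the result was not tested. In the authors' deposited table JUNB stood at 2.48 in CPE and −0.88 in CONTROL, and the 3 JUN probes stood higher in CPE by 0.58 to 2.57, on the whole-array scale.

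ATF3, a repressor induced by stress, was read by A_73_100833 (NM_001046193) with 3.72, 64.5, 74.5 and 6.95 intensity units in CPE and 9.48, 122, 141 and 9.15 in CONTROL. The lowest 4 values were at the floor, and they came from the 4 arrays with surroundings below −4. Of the other readings, that on CPE array 2 (64.5) and those on CONTROL arrays 2 and 3 (122 and 141) had surroundings of −1.59 to −1.44, and that on CPE array 3 was not well above background. Over those 3 arrays, scaled to the lit area, ATF3 was 1.94-fold lower in CPE (log2 −0.96, n = 1 in CPE and 2 in CONTROL, no test). BATF, the partner of JUN proteins in lymphocytes, was read by A_73_P080591 (NM_001206278) with 648, 30.4, 441 and 15.6 in CPE and 388, 288, 349 and 9.15 in CONTROL. It was well above background on 2 CPE and 3 CONTROL arrays. In processed signal those 2 CPE readings lay above the 3 CONTROL readings. On the whole-array scale they overlapped, with 1.78 and 0.66 in CPE against 1.31 to 1.53 in CONTROL. FOSL1 and FOSL2, Fos-related proteins without the strong activation domain of FOS, gave at most 55.4 intensity units over their 5 probes, with 2 of 40 readings well above background, both of the FOSL2 probe A_73_111466 in CPE (28.1 and 31.9). A level of FOSL1 in either group was not detectable at this signal.

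**Figure D3:**
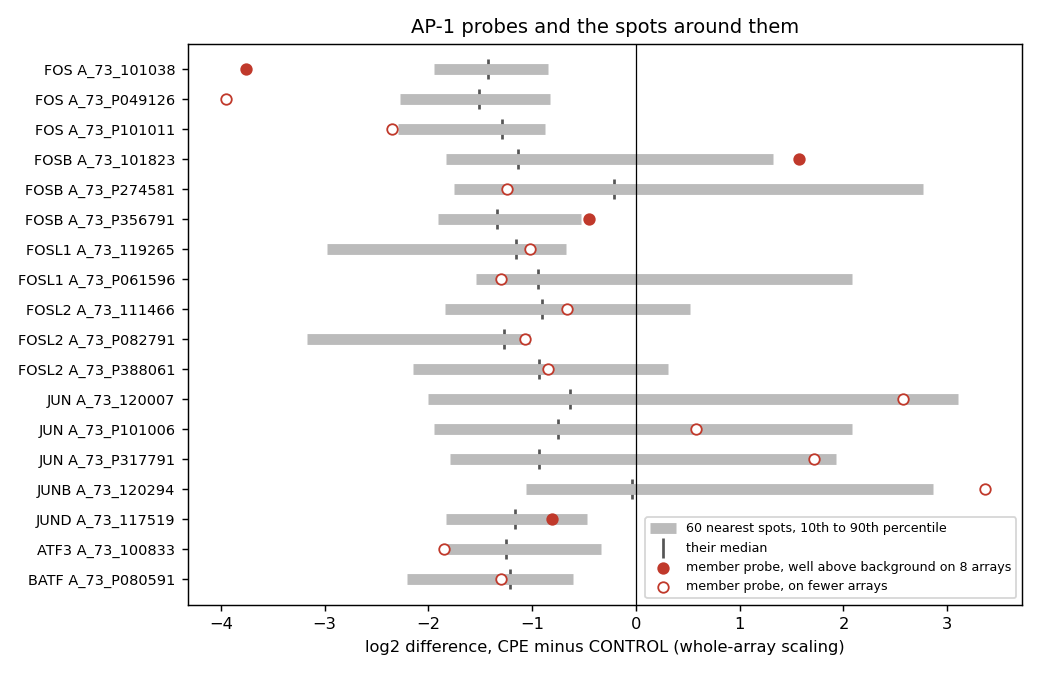
Log2 difference, CPE minus CONTROL on the whole-array scale, of each AP-1 probe (red; open where the probe was well above background on fewer than 8 arrays) and of its 60 nearest spots (grey bar, 10th to 90th percentile; tick, median). FOS A_73_101038 (−3.76) and A_73_P049126 lie beyond all their neighbours, whereas the JUN probes lie within the range of theirs.

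Counting calls needs the background, because a large share of all probes differed between these arrays. In the lit area 2 of the 18 AP-1 probes were tested, those of FOS and FOSB, and both passed an adjusted p of 0.05 (limma), where 48.2% of all 8099 tested probes did (24.3% lower and 24% higher). The groups were apart for both, and for 50.7% of all tested probes. Over the whole array 4 of the 18 were tested and 1, FOS, passed, where 39% of 14925 did (21.7% lower and 17.3% higher). Groups did not overlap for FOS alone, and for 46.1% of all tested probes. On the 7 arrays without CPE array 2, FOS, FOSB and JUND passed, where 46.3% of 8535 probes did (23.2% higher), and groups did not overlap for these 3 and for 56.8% of all. With a limit of 2, FOS and FOSB passed and JUND did not, where 45.9% of 8983 probes passed (21.6% higher). Since the members were proposed from this contrast, nothing is read from these counts. Without CONTROL array 4 the FOS probe A_73_P049126, and without CPE array 3 the JUN probe A_73_120007, enter the whole-array fit through 1 group only, so no fitted value is given for either.

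Other genes whose pattern over the 8 arrays was most like that of FOS were sought among 7151 lit probes with a reading on every array, by the root-mean-square difference between values centred on their own mean. The closest were ASB2, a subunit of a ubiquitin ligase (0.16 log2 units, difference −2.76), RUNX1T1, a transcriptional corepressor (0.22, difference −2.24), and ELMO1, a regulator of phagocytosis (0.22, difference −2.23). JUN and ATF3 had no lit probe for such a search.

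Genes linked to AP-1 by partnership, control or decay were read in the lit area, where 22.4% of all 5386 genes fell and 24.9% rose. Of 35 bZIP partners on the array, the other factors with the same DNA-binding fold, 16 were tested, of which 4 rose and 3 fell (43.8% called, against 47.3% of all genes; median log2 difference −0.070 against 0.048). CEBPE, a factor of granulocyte maturation, fell by 1.13 on the log2 scale (SE 0.15, limma adjusted p = 0.000545), from −0.34 ± 0.16 in CONTROL to −1.47 ± 0.29 in CPE (SD, 4 arrays each). CREB1, the cAMP-responsive factor that acts at the FOS promoter, fell by 0.51 (SE 0.18, limma adjusted p = 0.0461), with groups that overlapped, and ATF7, a relative of ATF2, was the third fall (−0.46). XBP1, a factor of the unfolded protein response, rose by 0.45 (SE 0.08, limma adjusted p = 0.00178), and CREB3 by 0.38 (SE 0.13, limma adjusted p = 0.0372), with 0.34, 0.094 and −0.19 at its 3 other lit probes. The other calls counted as rises, named after their values were seen, were CEBPB, an inflammatory partner, and MAFF (at least 2.33-fold). Both entered the test through the CPE group, since CEBPB was well above background on 1 CONTROL array and MAFF on none, and no exact difference is given. Entry through the CPE group alone favours a rise, so no direction is read from these calls. With the stricter filter, which left both out, 13 partners were tested, of which 2 rose and 3 fell.

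The route to FOS and JUN comprises the kinases and promoter-bound factors that switch these genes on. Of 13 genes tested, 2 rose and 4 fell (46.2% called, median −0.029). MEF2A, a factor that controls JUN, fell by 1.00 (SE 0.10, limma adjusted p = 0.000135). CREBBP, a coactivator of CREB and AP-1, fell by 0.53 at 1 probe (SE 0.08, limma adjusted p = 0.0011), whereas its other lit probes read −0.57 and 1.16. MAPK7, the kinase ERK5, rose by 0.58 (SE 0.19, limma adjusted p = 0.0348) and MAP2K6, which activates p38 kinases, by 0.54 (SE 0.10, limma adjusted p = 0.00212). The remaining falls were MAPK13, a p38 kinase (−0.51), and RPS6KA4, the kinase MSK2 (−0.41). MAPK8, the kinase JNK1, differed by 0.047 (SE 0.30) and did not pass.

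AP-1 targets, genes with AP-1 sites known from other systems, were few among lit spots: 6 were tested, of which 3 fell and 0 rose (50% called, median −0.50). Of all genes tested, 47.3% were called and 24.9% rose, with a median of 0.048. VEGFA, an angiogenic growth factor, was lower by a log2 difference of −1.497 (SE 0.13, limma adjusted p = 5.5e-05), and of −1.13 at its other lit probe. PLAU, the urokinase plasminogen activator, fell by 1.01 (SE 0.10, limma adjusted p = 0.000126), from 2.35 ± 0.08 in CONTROL to 1.34 ± 0.18 in CPE (SD over 4 arrays). CCND1, a cyclin of the G1 phase, the third fall, differed by −0.54. IL1B differed by −0.46 (SE 0.18) and PLAUR, the urokinase receptor, by −0.46 (SE 0.17), and neither passed.

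Genes for the decay of AU-rich mRNA, the process that clears FOS transcripts, had 2 rises and 6 falls among 16 tested (50% called, median −0.21). CNOT6, a deadenylase, fell by 1.01 (SE 0.10, limma adjusted p = 0.000115). KHSRP, which binds AU-rich elements, fell by 0.98 (SE 0.29, limma adjusted p = 0.0231), a call that was lost without CONTROL array 4 (−0.82). PAN3 of the PAN2-PAN3 deadenylase rose by 0.88 (SE 0.17, limma adjusted p = 0.00332), and CNOT3, of the same complex as CNOT6, by 0.48 (SE 0.11, limma adjusted p = 0.00686), a call lost with quantile scaling (0.18). ZFP36L2 and ZFP36L1, relatives of tristetraprolin that bind the same elements, were among the falls at −0.86 and −0.74, with PAN2 at −0.60 and the decapping factor DCP1A at −0.35.

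**Figure D4:**
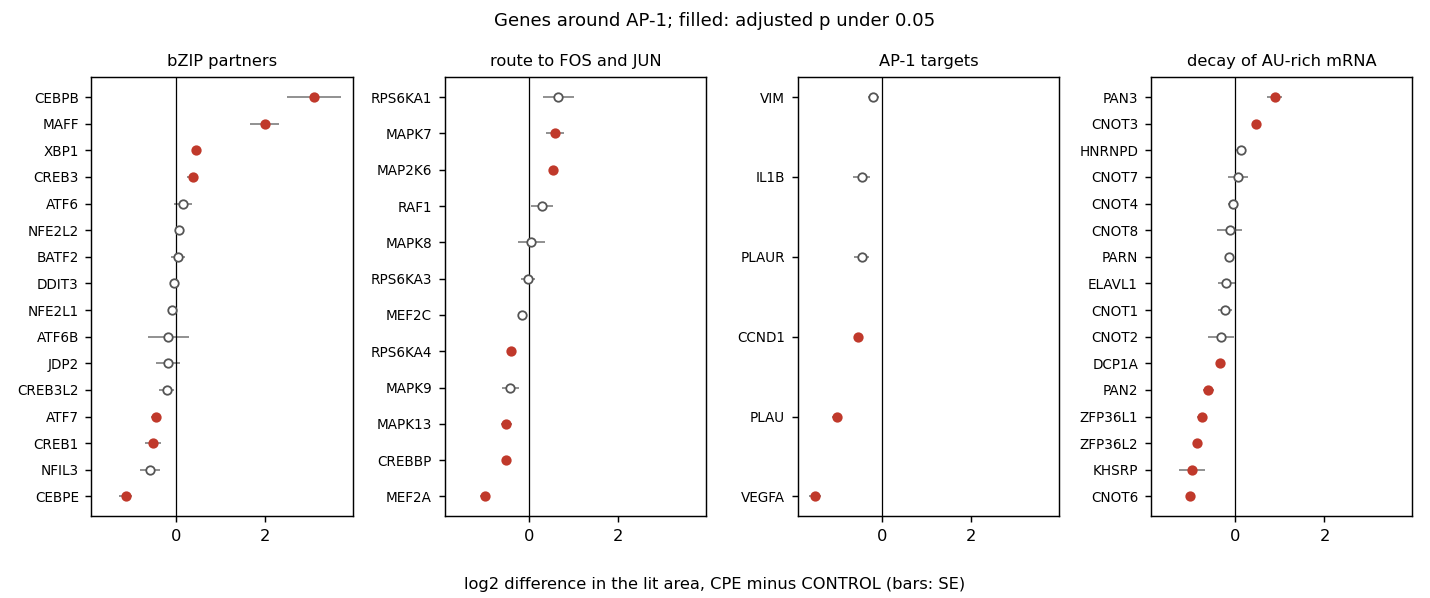
Log2 difference in the lit area, CPE minus CONTROL, of tested genes of 4 lists around AP-1, with bars for the SE; filled points passed an adjusted p of 0.05. In every list except AP-1 targets some genes lie near 0. The AP-1 targets all lie below 0, from VEGFA (−1.497) to VIM (−0.20). Called genes above background on all arrays range from CEBPE (−1.13) and VEGFA at the low end to PAN3 (0.88). MAFF and CEBPB are drawn above PAN3, but they entered the test through the CPE group only, and their drawn differences are not exact.

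In whole blood, fewer cells of a type and less RNA per cell cannot be told apart. Markers of some blood cells differed between the groups, and those of others did not pass. Of 18 markers tested in the lit area, 6 rose and 6 fell, where 24.9% of all 5386 tested genes rose and 22.4% fell. T cell markers rose in 4 of 4, with a summed level of 4.61 to 4.76 log2 units in CPE against 3.93 to 4.00 in CONTROL. Neutrophil markers fell in 3 of 4 (CXCR2, CSF3R and ALPL) and rose in 1 (S100A12). ALPL was well above background on 1 CPE array and on all 4 CONTROL arrays. Entry through the CONTROL group alone favours a fall, so no direction is read from its call, which is also among the 6 falls above. The summed level of the neutrophil markers was 6.67 to 6.86 against 6.60 to 6.73. That sum is almost wholly S100A12, whose mean in CPE was 6.60, against 3.15 for CSF3R, the next brightest. Of the 2 monocyte markers tested, CSF1R fell and CD14 did not pass, with a summed level of 2.10 to 2.95 against 3.27 to 3.63. The platelet marker PPBP rose by 1.47 (SE 0.14). The NK cell marker NKG7 differed by −0.79 (SE 0.12). None of the 3 B cell markers tested passed, nor did the red cell marker HBB. Of the general leukocyte markers, ITGB2 differed by −0.35 (SE 0.11) and PTPRC did not pass. All 30 markers had a reading somewhere, and the part of cell make-up in the FOS and FOSB readings was not tested.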

How the data were processed

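Signals came from 8 single-colour Cy3 arrays. Per the file headers, the authors read them with Agilent Feature Extraction 10.10.1.1, whose deposited processed intensity is background-subtracted, detrended and set to a floor, with no scaling between arrays. The deposited group averages are log2 values; 99.6% of them lay within 0.1 of log2 signal shifted to each array's 75th percentile and centred per probe. Medians of the deposited log2 columns were −0.60 for CPE and 0.46 for CONTROL.

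Control and outlier spots were left out, log2 processed signal was taken minus the 75th percentile of each array (lit spots, or the whole array), and limma 3.58.1 in R 4.3.3 was fitted to probes that were well above background throughout 1 group or both, with Benjamini-Hochberg adjustment over all probes tested. A gene in a list was read by its brightest tested probe. The 75th percentile of processed signal was 134 to 280 in CPE and 53.1 to 149 in CONTROL; the number of arrays limits the precision. Members, lists and tests were chosen with earlier results of these data known. Named list genes are the 2 largest rises and falls past the threshold and above background on all arrays; others were named after their values were seen. Gene names came through accessions for 26903 probes, and through symbols otherwise, in the RefSeq table of ARS-UCD2.0. Positions are not given, since the files name bosTau6. Normexp used the median spot signal and not the mean signal first planned. The fit was tested on simulated data. Alternatives were quantile, bright-probe and no scaling, normexp, other filters, other lit limits, local centring, the replicate block and leaving out arrays. Of the 13 tested genes of the route to FOS and JUN, 1 is counted but not reported here and not drawn.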

Additional observations from a re-analysis of the deposited data

Results flagged for a closer look

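In 3 of the 36 groups of 4 arrays formed by the 18 AP-1 probes, 1 array lay apart from the other 3, where chance flags about 1 group in 20; each time it was CONTROL array 4, the array with the smallest lit share. On the whole-array log2 scale, the FOS probe A_73_P049126 stood at −2.54 there, at the floor, against 1.97 to 2.31 on the other CONTROL arrays. The BATF probe A_73_P080591 also stood at −2.54, at the floor, against 1.31 to 1.53. The JUN probe A_73_120007 stood at −0.69 against −2.77 to −2.48, the one case in which the array was high. Its 33.0 intensity units were not well above background and lay near the 17.7 to 26.7 of the other CONTROL arrays. The 75th percentile used in scaling was 53.1 on CONTROL array 4, against 116 to 149 on the other CONTROL arrays.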

How the results depend on the processing

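FOS A_73_101038 ranged from −2.81 to −2.37 (log2) over 20 settings in the lit area and from −4.00 to −2.81 over 16 on the whole array; as the member was chosen on this contrast, these ranges only describe it. FOSB A_73_P356791 stayed higher in the lit area in its 19 settings (0.50 to 0.78) and lost its call without scaling; over the whole array it turned to 0.44, with a call, when scaled to bright probes, and to 0.50, with none, without scaling. JUND over the whole array turned to 0.082 and 0.14 in those settings. FOSB A_73_101823 passed with the stricter filter, under the replicate block and without CPE array 1. Deviations of same-numbered arrays were unevenly related (r = −0.12 to 0.37, highest for number 4). The numbers were not taken as pairs, although these values do not settle whether they were. The replicate block left 2 AP-1 calls in the lit area and gave 2 over the whole array.

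Lit-area calls over all probes (3907) were 1478 without scaling (423 higher, 1055 lower, against 1941 and 1966) and 1691 with normexp; local centring gave 3560 higher and 2150 lower. Over the whole array (5820) they were 3135 with normexp and 3689 with the stricter filter; against 2588 higher and 3232 lower, no scaling gave 3247 and 1146 (median difference 0.13) and bright-probe scaling 3901 and 2365 (median 0.078). AP-1 calls in the lit area were 1 of 2 tested without scaling. With a limit of 1, FOS alone was tested, and it was called. Over the whole array AP-1 calls were 2 with bright-probe scaling or the stricter filter and 4 without a filter. Without scaling, calls were 4 for bZIP partners, 1 for the route to FOS and JUN and 4 for AU-rich decay. With normexp they were 3 for bZIP partners and 3 for the route, and local centring gave 10 for the route. AP-1 targets had 5 calls without a filter (1 higher, 4 lower), with a limit of 2 and with local centring. With each array left out, calls ranged from 3252 to 4465 and 3765 to 6875 probes (lowest without CONTROL array 2 in both), 1 to 2 AP-1 probes over the whole array, 5 to 10 bZIP partners, 5 to 7 of the route, 3 to 5 targets (5 without CPE array 3) and 7 to 8 decay genes. CREB1 passed in 9 of 20 settings, CREB3 in 10 of 20 and MAPK7 in 10 of 18. VEGFA and CNOT6 lost their call with normexp, at −0.47 and −0.23. KHSRP fell by 0.35 with local centring, and CNOT3 also lost its call without scaling (0.30) and with normexp (0.46). XBP1 lost its call without scaling and with normexp, and CREBBP, MAP2K6 and PAN3 without scaling.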
